A study of Homo sapiens with 12 samples.

Results

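Expression was compared between U251-APP cells that lack the CTCF-binding site called CTCF-A (CTCF-A KO) and wild-type U251-APP cells, with 4 RNA sequencing libraries in each group. These are 8 of the 12 libraries of the series, and the other 4 come from cells that lack a different site, CTCF-B (CTCF-B KO). Genes were compared if 4 or more of the 12 libraries reached a linear value of 10, which held for 11128 of the 11178 genes listed. U251 is a human glioblastoma line of astrocytic origin, and all libraries, wild type included, come from its derivative that stably expresses mutant APP, the amyloid precursor protein, carrying K670N and M671L. Per the labels' protocols, the cells grew in RPMI-1640 medium with fetal bovine serum. Cas9 and a pair of guide RNAs on either side of the site were used for the deletion, and clones were raised from single transfected cells and sequenced across the target. The labels give the treatment "CRISPR/Cas9 editing" to wild type as well, but they do not say whether the wild-type cells had been transfected or cloned. Whether the 4 libraries of a group came from different clones or from cultures of the same clone is not stated either. The p-values therefore reflect only how these samples vary, which could be technical variation. The position of CTCF-A is not given in the sources used here, and a binding site is not a gene, so the table cannot show the deletion.

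CTCF is a DNA-binding protein with many zinc fingers that halts the cohesin ring as it extrudes chromatin, and pairs of its sites anchor loops between enhancers and promoters or insulate neighbouring domains from one another. A deleted site is one anchor fewer, so such deletions are used to ask which genes depend on a loop or a boundary. Astrocytic gliomas keep part of the programme of astrocytes and neural stem cells.

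The values are log2 values, and a difference is the CTCF-A KO mean minus the wild-type mean on that scale, given with its standard error (SE, n = 4 libraries in each group). A gene is said to have risen or fallen when its adjusted p in limma was under 0.05. The sequencing depth is unknown. In bulk samples, fewer cells of a type and less RNA per cell cannot be told apart. The labelled cell type was visible in wild type: VIM and CD44, both abundant in astrocytic glioma, ranked 15 and 34 from the top, and GFAP ranked 19. None of the 16 listed microglia and macrophage markers was among the genes tested, and neither were the astrocyte markers S100B and AQP4. Of the marker lists of other cell types, 1 of 11 endothelial, 3 of 12 oligodendrocyte, 5 of 15 neuron, 1 of 12 epithelial and 1 of 10 melanocyte genes were tested.

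The CTCF-A KO libraries differed more among themselves than the wild-type libraries did. Pairs of replicates had a median absolute difference of 0.08 to 0.29 in CTCF-A KO and 0.05 to 0.08 in wild type. In CTCF-A KO replicates 1, 2 and 3, genes of low GC content read lower and genes of high GC content read higher than in wild type. Over the 2220 genes of lowest GC content (23.1% to 41.6%) the median differences from the wild-type mean were -0.59, -0.27 and -0.41, and over the 2219 genes of highest GC content (58.5% to 74.4%) they were 0.34, 0.18 and 0.23. In CTCF-A KO replicate 4 the same medians were -0.04 and 0.05, close to the values of the wild-type libraries, which lay between -0.05 and 0.08. Values from replicate 4, or after a trend with GC content and transcript length had been removed from every library, are therefore given for many of the results. With replicate 4 as the single CTCF-A KO library, the spread in the fit comes from the wild-type libraries only. Rises and falls counted in replicate 4 alone therefore carry no spread of CTCF-A KO and are a description. The median over all genes was -0.001 there.

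**Figure D1:**
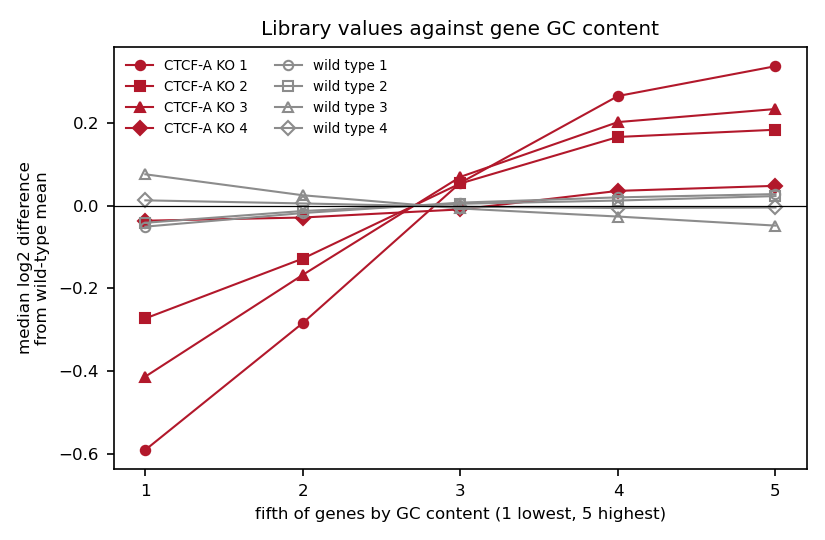
Median log2 difference from the wild-type mean (vertical axis) for 5 equal groups of genes ordered by GC content (horizontal axis), 1 line per library, CTCF-A KO in red and wild type in grey. CTCF-A KO replicate 1 runs from -0.59 to 0.34 and replicate 4 from -0.04 to 0.05.

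Of the 11128 genes tested, 6144 (55.2%) passed the test, 3167 of them higher in CTCF-A KO (28.5%) and 2977 lower (26.8%). In 5310 genes (47.7%) the 4 CTCF-A KO libraries were all above or all below the 4 wild-type libraries. With every library centred on its median, 6043 genes passed and 62.6% of them were higher, against 51.5% without centring. That centring moved the median difference of all genes from 0.005 to 0.087. Without the trend in GC and length, 6422 of 11096 genes passed (57.9%), 29.7% of all genes higher and 28.2% lower, and with replicate 4 as the single CTCF-A KO library 4315 passed (38.8%). With the trend removed, 4496 of the 6144 genes were still called in the same direction, 1614 were no longer called, 22 were called in the opposite direction and 12 could not be fitted. A difference of at least 2-fold was reached by 105 genes higher (0.944%) and 143 lower (1.29%). With every library centred on its median these numbers were 134 and 100, so that the larger number was on the other side, and with the trend removed they were 82 and 99. Without CTCF-A KO replicate 4 the number lower was 276. Each of the 4 CTCF-A KO libraries was at least 2-fold above the wild-type mean for 61 genes (0.548%) and at least 2-fold below it for 62 (0.557%), and all 61 and all 62 were also called in the same direction with the trend removed. With median centring 74 and 48 genes were 2-fold higher and lower in every CTCF-A KO library. In 50 further genes replicates 1, 2 and 3 were each more than 2-fold lower and replicate 4 was not, and the same held for 23 genes higher.

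The genes with the largest difference in their least changed library are described first, 14 higher and 14 lower. They were taken only from genes whose groups do not overlap, so the separation of their groups is a description. Among the rises were lysosome and melanosome proteins, enzymes for heme, steroids and retinoids, and genes induced by interferon. Among the falls were GFAP, receptors and adhesion molecules of neural cells, and secreted factors.

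GPNMB, a glycoprotein of lysosome and melanosome membranes (ENSG00000136235, chr7:23235967-23275108, plus strand), stood at 9.68, 9.64, 9.50 and 9.62 in wild type and at 12.31, 12.16, 12.32 and 12.20 in CTCF-A KO. The groups lay far apart and the 4 CTCF-A KO libraries were close together. The difference of 2.64 ± 0.06 is a 6.21-fold rise (adjusted p 2.61e-08). TSPAN10, a tetraspanin that escorts the protease ADAM10 (chr17:81637171-81648749, plus strand), was at 6.87, 6.94, 7.11 and 7.06 in wild type and 9.32, 8.93, 9.18 and 8.92 in CTCF-A KO, a rise of 2.09 ± 0.10. CTSD, the main aspartic protease of lysosomes (chr11:1752752-1764573, minus strand), was at 11.10, 11.03, 10.93 and 11.08 and 12.94, 12.61, 12.72 and 12.48, a rise of 1.65 ± 0.09. For CTSD replicate 1 was the highest and replicate 4 the lowest of the CTCF-A KO libraries, and all were above wild type.

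HMOX1, the inducible enzyme that breaks down heme (chr22:35380361-35394214, plus strand), was at 9.15, 9.03, 8.99 and 9.08 in wild type and 11.20, 11.09, 11.13 and 10.87 in CTCF-A KO, 4.03-fold higher (difference 2.01 ± 0.08, adjusted p 3.38e-07). AKR1C3, an aldo-keto reductase acting on steroids and prostaglandins (chr10:5035354-5107686, plus strand), was at 7.61, 7.39, 7.55 and 7.60 and 9.92, 9.81, 9.78 and 9.50, a rise of 2.22 ± 0.09. Reads of AKR1C3 may be shared with its close paralogs, which were not among the genes tested. TXNIP, which binds thioredoxin and restrains glucose uptake (chr1:145992435-145996600, minus strand), was at 10.54, 10.72, 10.47 and 10.65 and 12.30, 12.08, 12.36 and 12.11, a rise of 1.62 ± 0.08. None of these genes had overlapping groups.

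A pair of enzymes that lower retinoic acid rose by similar amounts. DHRS3, which turns retinal back into retinol (chr1:12567910-12617731, minus strand), was at 7.58, 7.70, 7.57 and 7.61 in wild type and 9.82, 9.76, 9.74 and 9.55 in CTCF-A KO, a rise of 2.10 ± 0.07 (adjusted p 2.14e-07). CYP26B1, which oxidises retinoic acid (chr2:72129238-72148038, minus strand), was at 5.82, 6.05, 5.75 and 5.76 and 7.75, 7.80, 7.85 and 7.63, a rise of 1.91 ± 0.09. Both are genes that retinoic acid is known to induce.

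OAS1, a sensor of double-stranded RNA (chr12:112906777-112933222, plus strand), was at 7.66, 7.21, 8.38 and 7.40 in wild type and 10.37, 9.67, 9.56 and 9.67 in CTCF-A KO. Wild type was spread over more than 1 log2 unit, with replicate 3 highest, and CTCF-A KO replicate 1 stood above the other 3, but the groups did not overlap (difference 2.16 ± 0.26, adjusted p 1.42e-04). OASL, its relative without enzyme activity (chr12:121019111-121039242, minus strand), was at 6.88, 6.67, 6.84 and 6.56 and 8.84, 8.60, 8.54 and 8.52, a rise of 1.89 ± 0.10. TAP1, a subunit of the pump that brings peptides to MHC class I (chr6:32845209-32853978, minus strand), was at 9.59, 9.56, 9.74 and 9.60 and 11.54, 11.13, 11.17 and 11.09, a rise of 1.61 ± 0.10.

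METRN, a secreted factor of glial and neurite growth (chr16:715115-719655, plus strand), was at 10.35, 10.51, 10.17 and 10.18 in wild type and 12.47, 12.06, 12.10 and 11.89 in CTCF-A KO, a rise of 1.83 ± 0.12. METRN lies at the end of the short arm of chromosome 16, where most genes were higher, as described further on. MAP1A, a microtubule-associated protein of neurons (chr15:43510958-43531620, plus strand), was at 7.38, 7.51, 7.38 and 7.32 and 9.08, 8.98, 9.16 and 8.98, a rise of 1.66 ± 0.07. CSF1, the growth factor of macrophages and microglia (chr1:109910242-109930992, plus strand), was at 9.99, 9.98, 9.83 and 9.93 and 11.68, 11.47, 11.49 and 11.42, a rise of 1.58 ± 0.07.

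GFAP, the intermediate filament protein of astrocytes (chr17:44903161-44916937, minus strand), was the leading fall. It stood at 15.84, 15.74, 15.47 and 15.67 in wild type and 12.69, 12.56, 12.54 and 12.51 in CTCF-A KO, a fall to 0.116 of the wild-type level (difference -3.11 ± 0.08, adjusted p 3.15e-08). The 4 CTCF-A KO libraries lay close together, with replicate 4 the lowest. FADS2, a desaturase that makes polyunsaturated fatty acids (chr11:61792980-61867354, plus strand), was at 10.06, 9.94, 9.60 and 10.11 and 7.97, 7.88, 7.69 and 7.78, with a difference of -2.09 ± 0.11.

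A pair of G protein-coupled receptors of the nervous system fell. CNR1, the cannabinoid receptor (chr6:88139864-88166359, minus strand), was at 11.58, 11.62, 11.61 and 11.60 in wild type and 8.74, 8.85, 8.83 and 9.30 in CTCF-A KO, and NPY1R, a receptor of neuropeptide Y (chr4:163323961-163344832, minus strand), was at 12.50, 12.40, 12.43 and 12.54 and 9.59, 9.82, 9.81 and 10.33. For both, replicate 4 was the highest of the CTCF-A KO libraries and still more than 2 log2 units below the wild-type mean. The differences were -2.67 ± 0.11 for CNR1 and -2.58 ± 0.13 for NPY1R. RGS4, which speeds up the switching off of G proteins (chr1:163068775-163076802, plus strand), was at 11.28, 11.04, 11.13 and 11.30 and 9.35, 9.60, 9.46 and 9.74, with a difference of -1.65 ± 0.09.

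Membrane proteins of cell contact fell as well. CADM1, an adhesion molecule of the immunoglobulin family found at synapses and glial contacts (chr11:115169218-115504957, minus strand), was at 11.70, 11.67, 11.67 and 11.74 in wild type and 9.30, 9.45, 9.48 and 9.58 in CTCF-A KO, a fall to 0.211 of wild type (difference -2.24 ± 0.06). GPM6B, a proteolipid of neural membranes (chrX:13771031-13938638, minus strand), was at 10.66, 10.57, 10.39 and 10.60 and 8.56, 8.46, 8.74 and 8.80, with a difference of -1.92 ± 0.09. CD24, a small glycoprotein anchored in the outer membrane (chr6:106969831-106975627, minus strand), was at 9.58, 9.49, 9.33 and 9.67 and 7.85, 7.90, 7.90 and 7.78, with a difference of -1.66 ± 0.08. All 4 CTCF-A KO libraries of CD24 were below every wild-type library.

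The rest of the falls were secreted, signalling and other proteins. SCUBE3, a secreted coreceptor for TGF-beta signalling (chr6:35214419-35253079, plus strand), was at 10.62, 10.40, 10.01 and 10.42 in wild type and 8.39, 8.04, 8.13 and 8.21 in CTCF-A KO, with a difference of -2.17 ± 0.12. ANKRD1, a nuclear ankyrin repeat protein and a target of YAP (chr10:90912096-90921276, minus strand), was at 8.26, 8.12, 8.23 and 8.19 and 5.82, 6.24, 6.12 and 5.85, with a difference of -2.19 ± 0.10. The protease ADAMTS16 (chr5:5140330-5320304, plus strand) was at 10.62, 10.46, 10.22 and 10.55 and 8.70, 8.73, 8.67 and 8.77, with a difference of -1.75 ± 0.08. The groups were again far apart in each.

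TNFSF4, the ligand of the T cell receptor OX40 (chr1:173183734-173207313, minus strand), was at 8.22, 8.17, 8.13 and 8.12 in wild type and 6.20, 6.48, 6.33 and 6.56 in CTCF-A KO, with a difference of -1.76 ± 0.09. S100A2, a small calcium-binding protein (chr1:153561108-153567890, minus strand), was at 11.41, 11.36, 11.37 and 11.29 and 9.77, 9.62, 9.62 and 9.23, with a difference of -1.80 ± 0.10. IL11, a cytokine that signals through gp130 (chr19:55364389-55370463, minus strand), was at 9.48, 9.25, 9.19 and 9.34 and 7.54, 7.87, 7.67 and 7.67, with a difference of -1.63 ± 0.09. For S100A2 the fall was deepest in replicate 4.

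**Figure D2:**
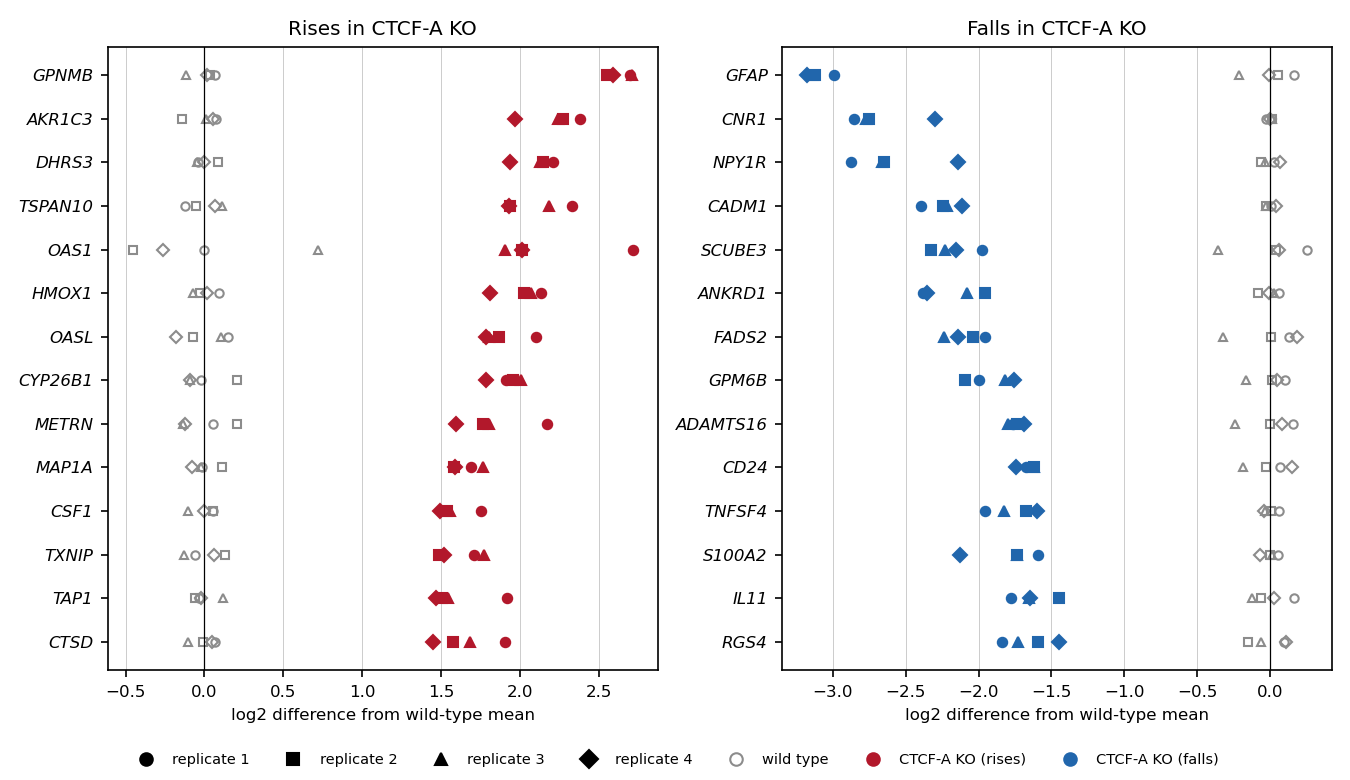
Log2 difference of each library from the wild-type mean (horizontal axis) for the 14 named rises (left, red) and 14 named falls (right, blue), with wild-type libraries as open grey symbols and 1 shape per replicate number. The genes were chosen for groups that do not overlap, so the gap to the wild-type symbols is fixed by the choice, and GFAP lies between -2.99 and -3.17.

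APP itself fell. It ranked 3 from the top in wild type, at 17.22, 17.23, 17.16 and 17.16, and was at 15.79, 15.75, 15.85 and 15.78 in CTCF-A KO, a fall to 0.379 of wild type (difference -1.40 ± 0.04). Transcripts of the added mutant APP and of the endogenous gene are counted together in the table. CTCF mRNA was at 11.15, 11.15, 11.11 and 11.17 in wild type and 10.78, 10.87, 10.82 and 10.89 in CTCF-A KO, with a difference of -0.30 ± 0.04 (adjusted p 5.27e-04). MTCH2, a carrier of the outer mitochondrial membrane whose name stands in the titles of the CTCF-B KO samples, was at 11.37, 11.32, 11.32 and 11.39 and 11.00, 10.93, 10.94 and 10.69, with a difference of -0.46 ± 0.07. All 4 CTCF-A KO libraries were below all wild-type libraries for each of these genes.

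Genes of antigen presentation rose together. MHC class I molecules display peptides cut by the proteasome, and the peptides reach them through the TAP pump and a loading complex. Of 19 genes of this list tested, 15 rose and 0 fell, with a median difference of 0.65 beside 0.005 over all genes, and in replicate 4 alone the median was 0.64. Over all genes tested 28.5% rose and 26.8% fell, and the counts of every list below are to be set beside these shares. Among the heavy chains, HLA-B was at 10.24, 10.13, 10.17 and 10.22 in wild type and 11.90, 11.72, 11.78 and 11.50 in CTCF-A KO, a rise of 1.54 ± 0.08, and HLA-F rose by 1.22 ± 0.08. HLA-C (1.21) and HLA-E (0.60) rose too, with the reservation that reads may be split between these similar genes. The shared light chain B2M rose by 0.85 ± 0.07, the immunoproteasome subunit PSMB8 by 1.31 ± 0.10, TAP2, the partner of TAP1 in the pump, by 0.86 ± 0.06, and NLRC5, the activator of class I genes, by 1.00 ± 0.08. The folding helper CALR (-0.14) and the trimming peptidases ERAP1 (0.15) and ERAP2 (0.30) did not pass the test. With the trend removed both peptidases were called higher, at 0.57 and 0.71, and CALR was called lower, at -0.32.

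Of 43 interferon response genes tested, 28 rose and 4 fell, with a median of 0.66. In replicate 4 alone the median was 0.63. Beside the OAS genes, IFITM1, which blocks viral entry, was at 6.91, 6.76, 6.99 and 6.71 in wild type and 8.84, 8.35, 8.35 and 8.12 in CTCF-A KO, a rise of 1.57 ± 0.14. OAS3 rose by 1.25 ± 0.11, the GTPase GBP1 by 1.28 ± 0.09, IFI6 by 1.39 ± 0.15, IFIT3 by 1.19 ± 0.14, and ISG15, a ubiquitin-like modifier, by 1.17 ± 0.17. The transcription factors STAT2 (0.46 ± 0.07) and IRF1 (0.82 ± 0.09) rose too. The 4 called lower were the receptor chains IFNAR1 (-0.38) and IFNGR2 (-0.21), the receptor-bound kinase JAK2 (-0.65) and PARP14 (-1.01). With the trend removed IFNAR1 and JAK2 stood at -0.02 and -0.23 and were not called. IFNAR1 also lost its call without any 1 of the wild-type libraries or of CTCF-A KO replicates 1 to 3, with differences of -0.41 to -0.25. JAK2 lost its call without wild-type replicate 2, 3 or 4 or CTCF-A KO replicate 1 or 3 (-0.67 to -0.46), and IFNGR2 without wild-type replicate 1 or 4 (-0.20 to -0.19). In replicate 4 PARP14 was -0.09 from wild type. JAK1 (0.08) and TYK2 (0.12) did not pass. No interferon gene was among the genes tested.

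The interferon-stimulated response element has a core of GAAA, any 2 bases, and GAAA again, which was searched on both strands from 250 bases before to 50 after each gene start. It was found in 996 of the 27305 promoters of the RefSeq table (3.65%, build GRCh38.p14). Promoters were found for 15 of 19 antigen presentation genes and 34 of 43 interferon response genes, under 80% of either list, so the share in a list cannot be compared with that of other genes and the check is void. The core was also found for PARP14, which was called lower, and for IFIT5, EIF2AK2, SAMD9, GBP3 and ERAP1, which did not pass. The stretches around the matches are shown for 4 genes that rose at least 2-fold in every CTCF-A KO library, with the matches in capitals; a match is a description of the letters, not a shown site. Each is written along its own gene's strand, 5′ to 3′, and TTTC on either side of 2 bases is the same core on the opposite strand.
TAP1 (chr6:32853793-32853868, minus strand): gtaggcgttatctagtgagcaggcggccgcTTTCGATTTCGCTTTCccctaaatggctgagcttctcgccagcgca
IFITM1 (chr11:313970-314073, plus strand): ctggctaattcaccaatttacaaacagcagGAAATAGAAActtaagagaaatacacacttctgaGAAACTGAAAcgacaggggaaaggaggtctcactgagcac
OAS3 (chr12:112938301-112938501, plus strand): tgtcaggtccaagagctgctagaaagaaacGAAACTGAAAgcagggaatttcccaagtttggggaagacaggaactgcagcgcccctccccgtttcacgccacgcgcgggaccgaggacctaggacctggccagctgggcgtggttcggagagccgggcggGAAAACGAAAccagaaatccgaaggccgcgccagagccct
GBP1 (chr1:89065296-89065365, minus strand): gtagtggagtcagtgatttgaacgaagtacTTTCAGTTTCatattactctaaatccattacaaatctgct

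Lysosomal enzymes rose in most cases. The lysosome digests proteins, sugars and lipids with acid hydrolases, in a lumen kept acid by a proton pump, the V-ATPase. Of 41 hydrolases and their helpers tested, 30 rose and 3 fell, with a median of 0.36, and in replicate 4 alone 25 rose and 4 fell, with a median of 0.28. Among the proteases, CTSB rose by 0.97 ± 0.07, CTSH by 1.33 ± 0.12 and the protective protein CTSA by 0.82 ± 0.08, while CTSF fell (-0.42) and CTSV (-0.10) did not pass. ACP5, an acid phosphatase known from osteoclasts, was at 5.99, 6.09, 5.96 and 5.95 in wild type and 7.90, 7.61, 7.86 and 7.39 in CTCF-A KO, a rise of 1.69 ± 0.11. The sugar-cleaving enzymes HEXA (0.79), GLB1 (0.73) and MAN2B1 (0.75) rose, as did PSAP, the precursor of their lipid-binding activators (0.57), and the progranulin gene GRN (0.77). GALNS, which lies on the long arm of chromosome 16 among genes that were mostly lower, fell (-0.40).

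Of 30 lysosomal membrane and V-ATPase genes, 20 rose and 2 fell, with a median of 0.27. With replicate 4 alone 14 rose and 1 fell, and with the trend removed 21 rose and 0 fell. NPC1, which exports cholesterol from lysosomes, was at 9.41, 9.42, 9.39 and 9.37 in wild type and 10.06, 10.09, 10.10 and 10.09 in CTCF-A KO, a rise of 0.69 ± 0.04. IGF2R, which sorts hydrolases to lysosomes, rose by 0.43 ± 0.05 and the V-ATPase subunit ATP6V0A1 by 0.57 ± 0.06.

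MITF, TFEB and TFE3 are related transcription factors of lysosome and melanosome genes. Of 14 genes of this family and its listed targets, 9 rose and 0 fell, with a median of 0.40 (0.37 in replicate 4 alone). MITF was at 9.56, 9.55, 9.76 and 9.69 in wild type and 9.79, 10.09, 10.00 and 10.48 in CTCF-A KO, a rise of 0.45 ± 0.13, and replicate 4 was the highest. TFEB rose by 0.54 ± 0.08 and TFE3 did not pass (0.14). RRAGD, a GTPase that links lysosomal nutrients to mTORC, rose by 1.14 ± 0.06, and FLCN, its regulator, by 0.39 ± 0.06. MITF was the only gene tested of the 10 listed melanocyte markers.

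The E-box TCACGTG, the core of the motif of this family, was searched in the same windows on both strands and was present in 1043 of 27305 promoters (3.82%) and in 6.11% of the promoters of genes tested. Promoters were found for 27 of 41 hydrolase genes, which again makes the share in the list void, and for 24 of 30 membrane and V-ATPase genes, of which 6 (25%) held the motif. In the list of the MITF and TFE family and targets 2 of 13 promoters (15.38%) held it. Promoters were found for only 78.5% of the genes tested, which is under the limit applied to the lists above. The shares in these lists therefore cannot be compared with that of the genes tested, and no enrichment is drawn from them. The motif was not confined to genes that rose: CTSF and GALNS, which fell, and NEU1 and ATP6V0D1, which did not pass, held it too. Windows of 3 genes that rose are shown, with the motif in capitals; where overlapping matches on the 2 strands join, the capitals run over both.
CTSD (chr11:1763938-1764004, minus strand): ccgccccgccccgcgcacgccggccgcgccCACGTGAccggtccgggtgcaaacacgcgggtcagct
CTSA (chr20:45891262-45891346, plus strand): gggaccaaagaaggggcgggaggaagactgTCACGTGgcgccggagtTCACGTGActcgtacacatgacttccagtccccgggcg
IGF2R (chr6:159968919-159969090, plus strand): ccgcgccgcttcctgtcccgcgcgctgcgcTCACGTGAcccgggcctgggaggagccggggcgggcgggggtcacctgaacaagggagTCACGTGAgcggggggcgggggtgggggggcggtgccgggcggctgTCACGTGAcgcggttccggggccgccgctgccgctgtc

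**Figure D3:**
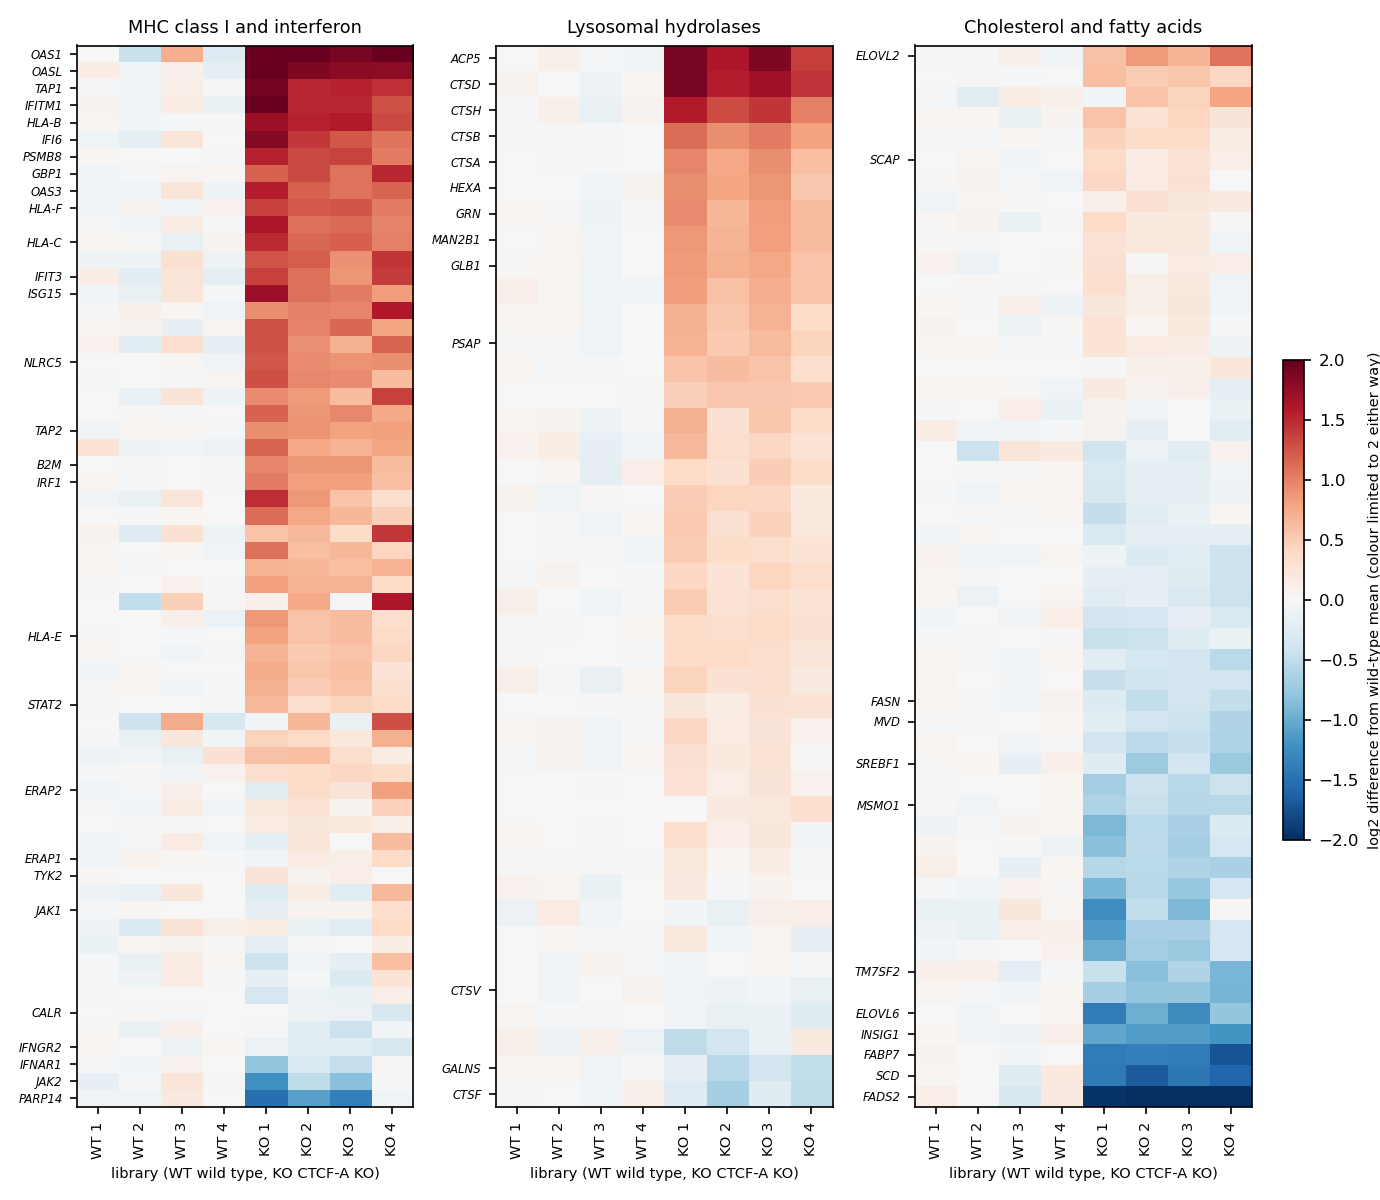
Log2 difference from the wild-type mean in each library (columns, 4 wild type then 4 CTCF-A KO) for members of 5 lists (rows, ordered by mean difference, with the genes described in the text labelled), red higher and blue lower, with the colour limited to 2 either way. TAP1 and CTSD are red in all 4 CTCF-A KO columns, FADS2 is blue in all 4, and PARP14 is blue in replicates 1 to 3 and near white in replicate 4.

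Autophagy genes did not move one way. Of 37 tested, 9 rose, 10 fell and 18 did not pass, with a median of 0.00, near the shares over all genes (28.5% higher and 26.8% lower). SQSTM1, the receptor p62 that carries ubiquitinated cargo, was at 13.34, 13.35, 13.26 and 13.32 in wild type and 14.91, 14.69, 14.81 and 14.48 in CTCF-A KO, a rise of 1.40 ± 0.08. MAP1LC3B (-0.75 ± 0.04) and GABARAPL2 (-0.47 ± 0.06), which coat the growing membrane, and BNIP3 (-0.85 ± 0.06), a mitophagy receptor, fell. These 3 lie in the stretches of chromosomes 10 and 16 where most genes were lower. Outside those stretches the count was 9 higher and 7 lower of 34.

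NRF2 is a transcription factor that switches on genes against oxidants and electrophiles. Of 33 genes of its list, 25 rose and 3 fell, with a median of 0.41 (0.25 in replicate 4 alone, with 21 higher and 2 lower). NQO1, a quinone reductase, was at 13.65, 13.59, 13.60 and 13.59 in wild type and 14.47, 14.34, 14.37 and 14.09 in CTCF-A KO, a rise of 0.71 ± 0.07. Glutathione reductase, GSR, rose by 0.61 ± 0.05, SRXN1, which repairs peroxiredoxins, by 0.59 ± 0.07, and the pentose phosphate enzymes TKT (0.61) and TALDO1 (0.58) rose. The mRNA of NRF2 itself, NFE2L2, was called lower (-0.42 ± 0.12), a call that was lost without wild-type replicate 3 or CTCF-A KO replicate 3 (both -0.39), and stood at -0.03 in replicate 4. KEAP1, its inhibitor, did not pass (0.11). Beside AKR1C3, the aldo-keto reductases AKR1B1 (0.55 ± 0.07), AKR7A2 (0.55 ± 0.09) and AKR1A1 (0.30 ± 0.08) rose, the last by only 0.09 in replicate 4.

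Iron genes moved in both directions, 10 higher and 5 lower of 21. The ferritin chains FTL (0.74 ± 0.08) and FTH1 (0.60 ± 0.07) and the biliverdin reductase BLVRB (1.04 ± 0.11) rose. FBXL5 (-0.79 ± 0.07), which removes the iron regulatory protein IREB2 when iron is plentiful, fell. IREB2 fell too (-0.79 ± 0.22), but was -0.10 from wild type in replicate 4.

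Of 15 retinoid genes, 10 rose and 1 fell, with a median of 0.35. STRA6, the membrane receptor that takes up retinol, was at 9.84, 9.81, 9.61 and 9.63 in wild type and 11.30, 11.03, 11.16 and 10.98 in CTCF-A KO, a rise of 1.39 ± 0.08. The nuclear receptors RARG (0.61 ± 0.08), RARA (0.53 ± 0.06) and RXRA (0.41 ± 0.06) rose, and the carrier CRABP2 did not pass (-0.08). With the GC and length trend removed the median of the list was 0.17.

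Cholesterol synthesis genes were mostly lower. The SREBP factors, held in the endoplasmic reticulum by INSIG and SCAP when sterols are plentiful, drive cholesterol and fatty acid synthesis. Of 27 cholesterol synthesis and uptake genes, 18 fell and 1 rose, with a median of -0.38 (-0.35 in replicate 4 alone, with 17 lower and 0 higher). INSIG1 was at 11.30, 11.21, 11.17 and 11.37 in wild type and 10.22, 10.15, 10.14 and 10.06 in CTCF-A KO, with a difference of -1.12 ± 0.06. TM7SF2 (-0.70 ± 0.11) and MSMO1 (-0.54 ± 0.06), enzymes of the later steps of cholesterol synthesis, fell. SREBF1 fell (-0.52 ± 0.12), and SCAP was the gene that rose (0.24), by 0.13 in replicate 4.

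In the fatty acid list 12 of 24 genes fell and 5 rose, with a median of -0.17, and with the trend removed 9 fell and 7 rose, with a median of -0.06. SCD, which makes monounsaturated fatty acids, was at 14.10, 14.06, 13.82 and 14.25 in wild type and 12.64, 12.39, 12.60 and 12.47 in CTCF-A KO, with a difference of -1.53 ± 0.09. The elongase ELOVL6 fell (-1.11 ± 0.12), FASN, the synthase itself, fell by less (-0.40 ± 0.06), and ELOVL2, an elongase of polyunsaturated chains, rose (0.80 ± 0.11). Of 14 sterol efflux and lipoprotein genes, 8 rose and 2 fell, among them the HDL receptor SCARB1 (1.17 ± 0.09) and LRP1 (0.81 ± 0.07) higher and VLDLR (-1.12 ± 0.06) lower. The cholesterol exporter ABCA1 did not pass (0.26), but with the trend removed it was called higher, at 0.56.

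Of 17 astrocyte and neural stem genes, 10 fell and 1 rose, with a median of -0.24, and in replicate 4 alone 11 fell and 0 rose. FABP7, the fatty acid-binding protein of radial glia, was at 10.93, 10.86, 10.80 and 10.86 in wild type and 9.46, 9.50, 9.47 and 9.14 in CTCF-A KO, with a difference of -1.47 ± 0.08. GJA1, the main gap junction protein of astrocytes, fell (-1.15 ± 0.09), as did ID4 (-0.95 ± 0.06), NFIB (-1.07 ± 0.16), SLC1A3, a glutamate transporter (-0.52 ± 0.08), and SOX2 (-0.31 ± 0.04). SOX9 (0.06) and the stem cell filament NES (-0.12) did not pass, and NES was called lower with the trend removed, at -0.28. Among other intermediate filaments, NEFL (0.52 ± 0.05) and KRT10 (0.80 ± 0.08) rose. Of the 5 neuron markers tested, GAD1 (0.52 ± 0.08) and NEFL rose and MAP2 (0.12), SYT1 (0.01) and SNAP25 (-0.18) did not pass. With the trend removed 4 of the 5 were called higher, MAP2 at 0.55 and SYT1 at 0.35 among them. The single endothelial marker tested, KDR, fell (-1.18 ± 0.07).

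**Figure D4:**
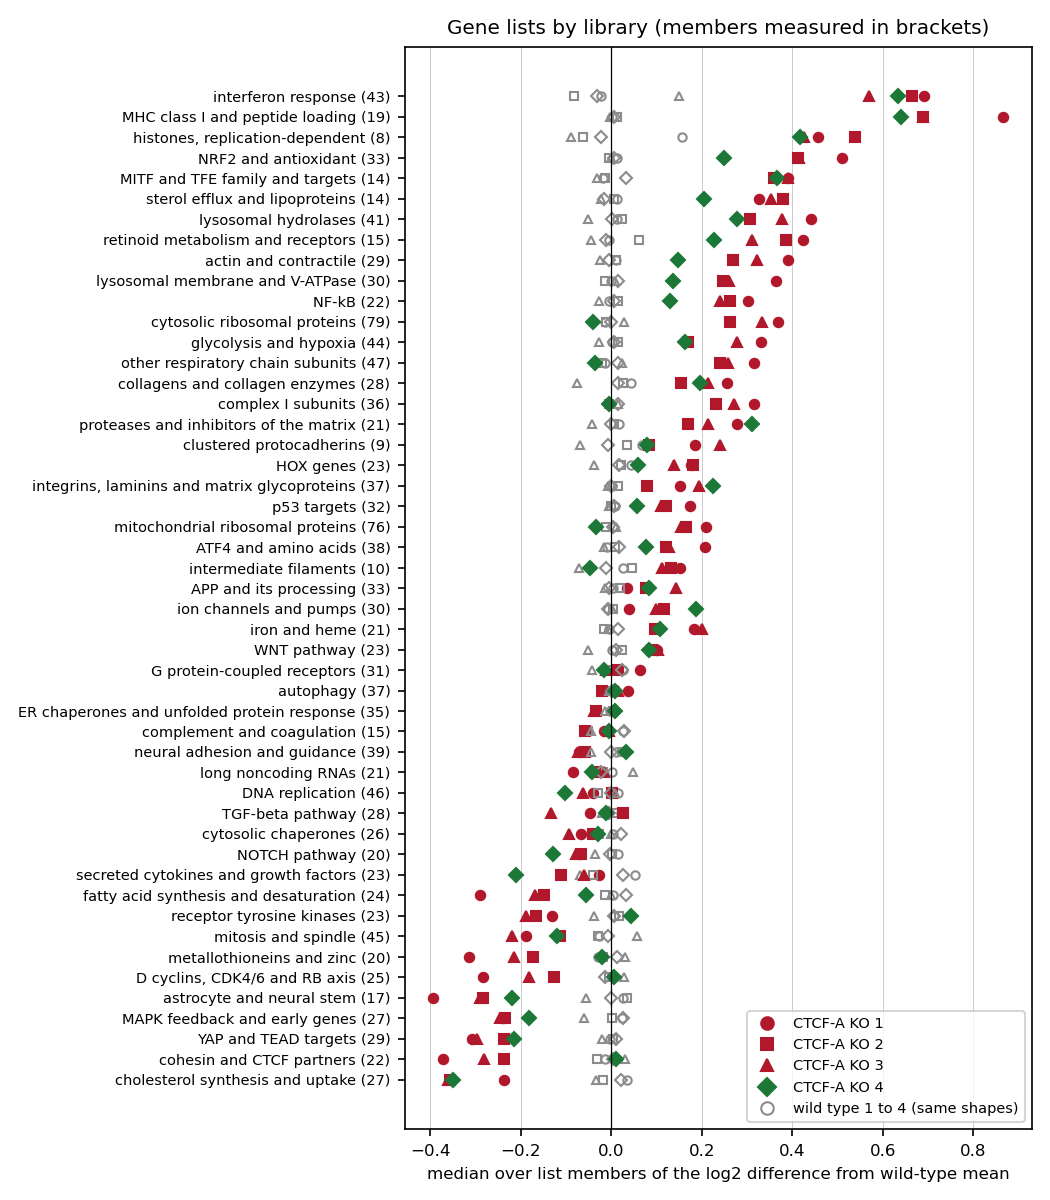
Median over list members of the log2 difference from the wild-type mean (horizontal axis) for each list of 8 or more measured genes (rows), with replicates 1 to 3 of CTCF-A KO in red, replicate 4 in green and wild type in open grey. The interferon and MHC lists lie highest at 0.57 to 0.87 in all 4 CTCF-A KO libraries, and the ribosomal and respiratory chain lists are above wild type in replicates 1 to 3 but not in replicate 4.

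Feedback inhibitors of growth factor signalling were among the falls. Of 27 genes that the MAP kinase pathway induces, 15 fell and 7 rose, with a median of -0.27. The PEA3 factors ETV4 (-0.91 ± 0.07), ETV1 (-0.88 ± 0.15) and ETV5 (-0.32 ± 0.04), the phosphatase DUSP4 (-0.69 ± 0.07) and the Sprouty genes SPRY2 (-0.54 ± 0.08) and SPRY4 (-0.45 ± 0.06) were lower. JUNB (1.12 ± 0.10) and the sphingosine kinase SPHK1 (1.13 ± 0.06) rose. Of 29 genes of the YAP and TEAD pathway, 18 fell and 3 rose, with a median of -0.27. CTGF, a secreted matrix protein, fell (-0.95 ± 0.06), as did CYR61 (-0.51 ± 0.06), and YAP1 itself (-0.75 ± 0.12), which was -0.42 from wild type in replicate 4. TEAD1 (-0.84 ± 0.24) and WWTR1 (-0.42 ± 0.08) were called lower, but TEAD1 stood at -0.10 in replicate 4 and WWTR1 at -0.05 with the trend removed, and neither was called there.

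Among receptor tyrosine kinases 7 of 23 rose and 9 fell, beside 28.5% and 26.8% of all genes. EPHB2, a receptor of ephrins, was at 9.63, 9.65, 9.58 and 9.63 in wild type and 11.13, 11.10, 11.11 and 10.96 in CTCF-A KO, a rise of 1.45 ± 0.05, and ERBB2 rose by 0.99 ± 0.07. FGFR3 (-1.01 ± 0.10) and PDGFRA (-0.96 ± 0.13), receptors of glial precursors, fell, and EGFR (-0.23) and FGFR1 (0.09) did not pass. In the TGF-beta list 12 of 28 rose and 11 fell, or 9 and 11 with the trend removed. The target genes PMEPA1 (1.10 ± 0.05) and TGFBI (0.81 ± 0.04) rose, while the receptors TGFBR2 (-0.60 ± 0.07), BMPR1A (-1.05 ± 0.16) and TGFBR1 (-0.66 ± 0.17) fell, the last to -0.14 in replicate 4.

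Of 23 cytokine and growth factor genes, 9 rose and 10 fell. Beside CSF1, GDF15, a stress-induced factor, rose (1.05 ± 0.10), and PTX3 (0.88 ± 0.08) and VEGFA (0.59 ± 0.06) did so too. Beside IL11, IL18 fell (-1.10 ± 0.06), as did CXCL8 (-0.83 ± 0.12), a chemokine for neutrophils, and FGF2 (-0.94 ± 0.14). In the list of NF-kB genes 12 of 22 rose and 4 fell, with the inhibitor NFKBIA higher (0.84 ± 0.08). After trend removal 9 rose and 5 fell and the median went from 0.25 to 0.09, and in replicate 4 alone 7 rose and 3 fell, with a median of 0.13. Of 15 complement and coagulation genes 3 rose and 5 fell, CD59, which shields cells from complement, among the falls (-0.58 ± 0.04), and with the trend removed 6 rose and 4 fell.

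Cell surface and matrix genes changed in both directions, as did all genes tested (28.5% higher and 26.8% lower). Of 39 neural adhesion and guidance genes, 14 rose and 16 fell. L1CAM, an adhesion molecule of axons, was at 9.54, 9.47, 9.44 and 9.48 in wild type and 10.80, 10.62, 10.71 and 10.56 in CTCF-A KO, a rise of 1.19 ± 0.06, and NTN1, the guidance cue netrin, fell (-1.54 ± 0.10). Of 9 clustered protocadherins, a family in which CTCF takes part in promoter choice, 3 rose and 0 fell, PCDHB14 by 0.39 ± 0.07, and the others did not pass. The call of PCDHB9 (0.20 ± 0.06) was lost without wild-type replicate 2 (0.19) or CTCF-A KO replicate 3 (0.20), and that of PCDHGC3 (0.22 ± 0.07) without wild-type replicate 3 or 4 or CTCF-A KO replicate 3 (0.19 to 0.21) and with the trend removed (0.08).

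Of 28 collagen genes, 14 rose and 5 fell. COL6A1 (1.00 ± 0.08) and COL6A2 (1.12 ± 0.08), chains of one collagen of cell surfaces, rose, and COL1A1, a fibrillar collagen chain, fell (-1.03 ± 0.06). Of 37 integrin, laminin and glycoprotein genes, 18 rose and 10 fell. FN1, fibronectin, rose (1.10 ± 0.06), together with its receptor subunit ITGA5 (1.06 ± 0.06) and the laminin chain LAMA2 (1.06 ± 0.13), and ITGB8, which activates TGF-beta, fell (-1.14 ± 0.23), though in replicate 4 it stood at -0.44 and was not called. MMP14, a protease at the cell surface, rose (1.27 ± 0.10), and 11 of 21 matrix proteases and inhibitors rose and 6 fell. Of 29 actin and contractile genes, 19 rose and 3 fell, with TPM1 (0.54 ± 0.04), MYLK (0.59 ± 0.08) and FLNA (0.51 ± 0.06) higher and MYH10 (-0.75 ± 0.10) lower. The median of the actin list was 0.29, and 0.15 in replicate 4 alone, where 15 rose and 5 fell.

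Among cell cycle genes, CCND1, which opens the cycle by binding CDK4, was at 11.65, 11.48, 11.53 and 11.64 in wild type and 10.04, 10.42, 10.09 and 10.29 in CTCF-A KO, with a difference of -1.36 ± 0.09. CDK6 fell (-1.06 ± 0.28), with -0.22 in replicate 4, and CDKN1A, the inhibitor p21, rose (0.79 ± 0.10). In the list of the D cyclins and their partners 6 of 25 genes rose and 10 fell, and in replicate 4 alone 3 rose and 4 fell. Of 46 DNA replication genes 7 rose, 13 fell and 26 did not pass, with a median of -0.06, beside 28.5% higher and 26.8% lower over all genes. Of 45 mitosis genes 6 rose and 19 fell, with a median of -0.21 (-0.12 in replicate 4 alone, with 1 higher and 17 lower). MKI67, the proliferation marker, was at 12.84, 12.81, 13.06 and 12.75 and 11.18, 11.43, 11.41 and 11.81, with a difference of -1.41 ± 0.12. Both MKI67 and BUB3 (-1.06 ± 0.05), a spindle checkpoint protein, lie at the end of the long arm of chromosome 10, and GINS2 (-0.86 ± 0.07) and CDT1 (-0.32 ± 0.06) at the end of that of chromosome 16. Outside those stretches 17 of 43 mitosis genes fell and 6 rose, among them CCNA2 (-0.61 ± 0.08) and CDK1 (-0.58 ± 0.09) lower, while PLK1 did not pass (-0.09) except with the trend removed, where it was called lower (-0.28). Of 32 p53 targets 14 rose and 10 fell, with PHLDA3 (1.13 ± 0.09) and SESN2 (0.75 ± 0.09) higher and MDM2 (-0.75 ± 0.15) and ZMAT3 (-0.89 ± 0.20) lower, and in replicate 4 alone 8 rose and 7 fell.

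Of 44 glycolysis and hypoxia genes, 24 rose and 7 fell, with a median of 0.22. ADM, adrenomedullin, was at 6.87, 7.10, 6.88 and 7.13 in wild type and 8.57, 8.47, 8.37 and 8.25 in CTCF-A KO, a rise of 1.42 ± 0.09, and NDRG1 (1.25 ± 0.10), the lactate exporter SLC16A3 (1.22 ± 0.08) and ENO2 (1.02 ± 0.08) rose. LDHA, which makes lactate, fell (-0.51 ± 0.05). Of 38 ATF4 and amino acid genes 16 rose and 9 fell, with DDIT3 (0.72 ± 0.08) and CEBPB (0.94 ± 0.07) higher and PHGDH (-0.50 ± 0.07) lower. After trend removal 13 of that list rose and 12 fell, and the median went from 0.10 to -0.02, and in replicate 4 alone 11 rose and 10 fell. Of 35 unfolded protein response genes 9 rose and 6 fell, or 15 and 12 with the trend removed, and of 26 cytosolic chaperones 7 rose and 7 fell. The inducible HSPA1B (0.93 ± 0.08) and HSPB8 (1.05 ± 0.07) rose, and their partner BAG3, on chromosome 10, fell (-0.68 ± 0.05).

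Of 33 genes in the list of APP and its processing, which holds APP itself, 14 rose and 10 fell, or 19 and 8 with the trend removed. BACE1, the beta-secretase, fell (-0.58 ± 0.05), and BACE2, its homolog, rose (0.68 ± 0.06). Of the gamma-secretase, NCSTN (0.55 ± 0.07), PSEN2 (0.59 ± 0.07), APH1A (0.33 ± 0.08) and PSENEN (0.34 ± 0.09) rose, the last pair by only 0.08 and 0.12 in replicate 4. The sorting receptor SORL1 fell (-0.56 ± 0.09) and the clearance receptor LRP1 rose. Of 22 cohesin and CTCF partner genes, 10 fell and 3 rose, with a median of -0.28. RAD21, a cohesin subunit, fell (-0.61 ± 0.15) and its release factor WAPL did so too (-0.63 ± 0.15), but in replicate 4 they stood at -0.16 and -0.17 and were not called. That list had a median of 0.01 in replicate 4 alone, where 5 fell and 2 rose.

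In the lists of ribosomal and respiratory chain genes replicate 4 stood apart from the other CTCF-A KO libraries. Of 79 cytosolic ribosomal protein genes, 42 rose and 6 fell, with a median of 0.24, but with replicate 4 standing alone for CTCF-A KO 15 rose and 20 fell, with a median of -0.04. Complex I genes went from 17 higher and 2 lower of 36 to 3 higher and 6 lower, the other respiratory chain subunits from 21 and 4 of 47 to 6 and 11, and mitochondrial ribosomal proteins from 28 and 6 of 76 to 7 and 19. With the trend removed the ribosomal count was 43 higher and 13 lower, with a median of 0.12. Genes whose groups did not overlap included RPL26L1 (0.62 ± 0.07), ATP5MC1 (0.74 ± 0.09) and MRPS11 (0.83 ± 0.09), which rose, and RPL22 (-0.41 ± 0.06), which fell.

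Genes were also ranked by the distance of replicate 4 from the nearest other CTCF-A KO library. The split in the genes that follow is fixed by this choice and is a description. BIRC6, an inhibitor of apoptosis of 15703 bases and 43.1% GC, was at 9.90, 9.98, 10.37 and 9.96 in wild type and 8.45, 9.06, 8.88 and 10.04 in CTCF-A KO. Replicates 1 to 3 were far below wild type and replicate 4 lay among the wild-type libraries. PARP14 was at 10.34, 10.34, 10.60 and 10.41 and 8.91, 9.34, 9.05 and 10.33, and USP24, a deubiquitinase, was at 9.71, 9.81, 10.08 and 9.88 and 8.13, 8.94, 8.74 and 9.88, with replicate 4 again far above the other 3. PARP14 (-1.01 ± 0.26), BIRC6 (-0.94 ± 0.28) and USP24 (-0.94 ± 0.30) were called lower, and none of them was called with replicate 4 standing alone for CTCF-A KO, at -0.09, -0.01 and 0.01. The call of BIRC6 was also lost without wild-type replicate 3 or CTCF-A KO replicate 3 (-0.84 and -0.87), and that of USP24 without either of these or wild-type replicate 4 (-0.94 to -0.88). The kinase TAOK1 (-0.77), in which replicate 4 was the highest of its group, did not pass. In the other direction, STK32C was at 7.23, 7.07, 7.36 and 7.33 and 6.28, 6.30, 6.48 and 5.72, lowest in replicate 4. STK32C lies at the end of the long arm of chromosome 10, among genes that were mostly lower.

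Smaller lists gave the following counts, several of them near the shares over all genes (28.5% higher and 26.8% lower). Of 23 WNT pathway genes 10 rose and 8 fell, or 8 and 9 with the trend removed, with LGR4, a receptor for R-spondins, lower (-1.39 ± 0.11), and DKK1 (-0.98 ± 0.06), an antagonist, lower. NOTCH genes rose in 4 and fell in 9 of 20, with DLL1, a ligand, lower (-0.57 ± 0.12). HOX genes rose in 10 and fell in 4 of 23, or 8 and 7 with the trend removed, and ion channel genes rose in 12 and fell in 6 of 30, with the chloride transporter of lysosomes CLCN7 higher (1.00 ± 0.06). Of 31 G protein-coupled receptors 9 rose and 10 fell. Of 20 metallothionein and zinc genes 1 rose and 8 fell, MT1F among the falls (-0.77 ± 0.12), and with the trend removed 6 rose and 5 fell. Of 8 replication-dependent histone genes 4 rose, HIST1H2BK by 0.89 ± 0.09, and of 21 long noncoding RNAs 4 rose and 5 fell, or 2 and 7 with the trend removed.

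The differences were not evenly spread over the chromosomes. Genes were grouped by 10 Mb of position (GRCh38), and 265 windows held at least 10 tested genes. With the GC and length trend removed, the median difference was at or below -0.2 in 25 windows and at or above 0.2 in 12, and ran from -1.08 to 0.42 over all windows. On the long arm of chromosome 10, from CACUL1 (start 118674167) to MTG1 (end 133421307), 44 of 46 tested genes fell and 0 rose. Over all genes tested 26.8% fell and 28.5% rose. In the fixed windows of 120 to 130 and 130 to 140 Mb, 22 of 23 and 10 of 11 genes fell. The ends of this stretch, and of those of chromosome 16 below, were placed with these data known, so their counts are a description. The raw medians of this stretch were -1.15, -1.10, -1.09 and -1.11 in the 4 CTCF-A KO libraries and 0.00, 0.00, 0.01 and 0.01 in wild type, and the trend-removed medians were -1.06, -1.06, -1.03 and -1.07 in CTCF-A KO. All 4 CTCF-A KO libraries were therefore near one log2 unit below wild type across the stretch, replicate 4 as much as the others. DNA was not measured, so whether the number of gene copies differs between the groups was not tested, here or for the stretches of chromosome 16. This limit holds for every gene placed in these stretches or in the other shifted windows given further on. Only the pseudogene RPL21P16 (0.26) and PWWP2B (0.05) did not pass.

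The stretch held genes of unrelated function. INPP5F, a phosphoinositide phosphatase, was at 9.53, 9.63, 9.64 and 9.60 in wild type and 7.54, 7.77, 7.65 and 8.18 in CTCF-A KO, with a difference of -1.82 ± 0.12. ACADSB, an enzyme of branched-chain amino acid breakdown, fell (-1.71 ± 0.12), as did WDR11 (-1.48 ± 0.14), the mitochondrial peroxidase PRDX3 (-1.19 ± 0.05), OAT (-1.27 ± 0.05), CTBP2 (-1.28 ± 0.05) and DOCK1 (-1.51 ± 0.09). Of the 62 genes 2-fold lower in every CTCF-A KO library, 20 lay between 110 and 140 Mb of chromosome 10, where 69 genes were tested. None of the 28 genes described first lay there.

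On the long arm of chromosome 16, from PSMD7 (start 74296775) to GAS8 (end 90044975), 71 of 77 genes fell and 3 rose. The medians were -0.48, -0.55, -0.50 and -0.63 in CTCF-A KO and 0.01, 0.01, -0.02 and 0.01 in wild type, and -0.66, -0.62, -0.63 and -0.66 in CTCF-A KO with the trend removed. The ribosomal protein gene RPL13 fell (-0.38 ± 0.08), as did MVD of the cholesterol pathway (-0.41 ± 0.08) and PIEZO1, a channel opened by stretch (-0.46 ± 0.06). The genes that did not fall were OSGIN1 (0.32), SLC7A5 (0.22) and FOXF1 (0.73), which rose, and BANP (-0.03), MLKL (-0.01) and TMEM231 (0.11), which did not pass. OSGIN1 is a gene induced by NRF2, and SLC7A5 is an amino acid transporter induced by ATF4. With the trend removed neither was called, at 0.12 and 0.06, and OSGIN1 was not called without wild-type replicate 3 or 4 (both 0.29).

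At the other end of chromosome 16, from POLR3K (start 46407) to EEF2KMT (end 5097808), 114 of 126 genes rose and 1 fell. The medians were 0.68, 0.54, 0.58 and 0.41 in CTCF-A KO and 0.02, 0.02, -0.03 and 0.00 in wild type, and with the trend removed 0.38, 0.38, 0.37 and 0.37 in CTCF-A KO. The shift was smaller than on chromosome 10 but was present in all 4 CTCF-A KO libraries, and with the trend removed their medians were nearly equal. METRN lies in this stretch, as do CLCN7, NDUFB10 (0.81 ± 0.08), RPS2 (0.62 ± 0.08) and AXIN1 (0.50 ± 0.07). Its rise of 1.83 was above the median of its neighbours.

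Shifts were seen in other windows as well. In the lists above position was noted only for genes of chromosomes 10 and 16, so other listed genes may lie in such windows. On chromosome 11 between 40 and 50 Mb, the window that holds MTCH2, 26 of 39 genes fell and 0 rose, with trend-removed medians of -0.37, -0.35, -0.36 and -0.37 in CTCF-A KO. On chromosome 15, 50 of 70 genes between 80 and 100 Mb rose and 4 fell. On chromosome 4, 37 of 59 genes between 0 and 10 Mb fell and 3 rose, with trend-removed medians of -0.35, -0.33, -0.33 and -0.34 in CTCF-A KO. The windows of 10 to 20, 20 to 30 and 30 to 40 Mb there had trend-removed median differences of -0.33, -0.31 and -0.34. On chromosome 16 between 40 and 50 Mb, 11 of 14 genes fell and 0 rose (-0.44). On chromosome 9 between 10 and 20 Mb, 14 of 17 fell and 1 rose (-0.32). The 6 windows from 110 to 140 Mb of chromosome 10 and from 0 to 10 and 70 to 90 Mb of chromosome 16 were also left out. This choice was made after seeing the data. Without them 5878 genes passed, and 60 were 2-fold higher and 42 were 2-fold lower in every CTCF-A KO library.

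**Figure D5:**
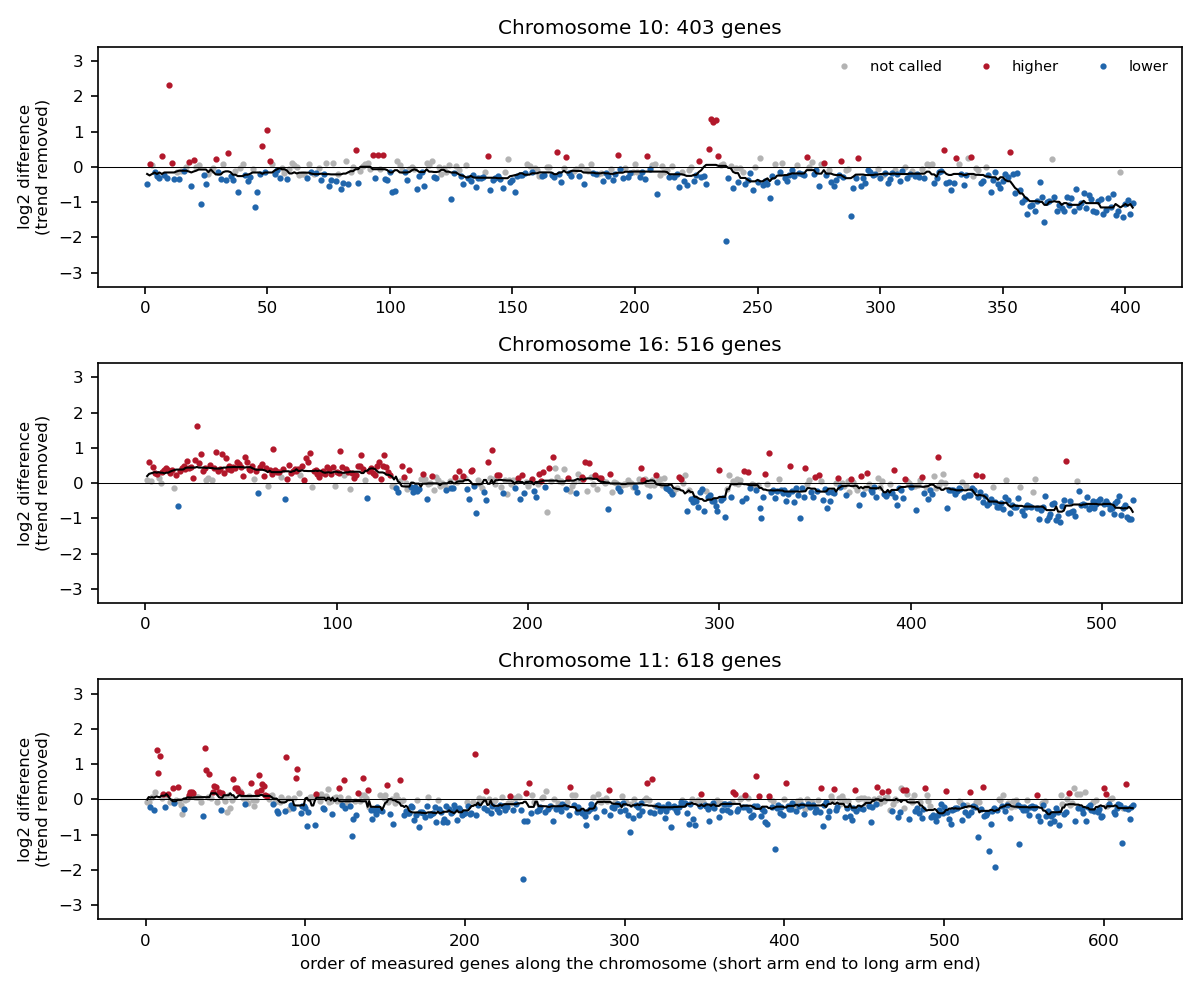
Log2 difference after removal of the GC and length trend (vertical axis) against the order of tested genes along chromosomes 10, 16 and 11 (horizontal axis), red for genes called higher, blue for lower and grey for not called, with a running median of 15 genes in black. The last genes of chromosome 10 lie near -1, and chromosome 16 starts above 0 and ends below it.

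The same genes were set against CTCF-B KO, in a fit of the 4 CTCF-A KO and 4 CTCF-B KO libraries with no wild-type library. This comparison and the one with wild type share the CTCF-A KO libraries, so their values are given side by side only. Of 11128 genes 6740 passed (60.6%), 3453 of them higher in CTCF-A KO (31%) and 3287 lower (29.5%). Of the 14 named rises, 13 were higher in CTCF-A KO than in CTCF-B KO and OASL did not pass (0.14 ± 0.11). GPNMB was at 8.77, 8.75, 8.85 and 8.87 in CTCF-B KO, and the difference between the knockouts was 3.44 ± 0.06 (adjusted p 1.03e-09). CTSD was at 11.04, 11.08, 10.97 and 10.97 in CTCF-B KO, with a difference of 1.67 ± 0.09. DHRS3 was at 7.76, 7.50, 7.62 and 7.78, with a difference of 2.06 ± 0.08. Some named rises also had a higher mean in CTCF-B KO than in wild type, without a test. The means were 8.49 and 6.74 for OASL, 8.89 and 7.54 for AKR1C3, and 8.82 and 7.66 for OAS1. HMOX1, TXNIP, TAP1, TSPAN10, MAP1A and DHRS3 stood above wild type by less. GPNMB, METRN, CSF1, CTSD and CYP26B1 had CTCF-B KO means below wild type.

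The 14 named falls were divided. CNR1 (-1.08 ± 0.13), CADM1 (-0.44 ± 0.06), GPM6B (-0.64 ± 0.09), FADS2 (-0.40 ± 0.08), IL11 (-2.09 ± 0.11), RGS4 (-1.64 ± 0.09) and GFAP (-0.26 ± 0.05) were lower in CTCF-A KO than in CTCF-B KO. IL11 was at 9.73, 10.05, 9.78 and 9.54 in CTCF-B KO and RGS4 at 11.19, 11.26, 11.25 and 11.02, far above the CTCF-A KO values given above. NPY1R (0.48 ± 0.14), SCUBE3 (1.15 ± 0.08), ANKRD1 (0.39 ± 0.12) and CD24 (0.52 ± 0.06) were higher in CTCF-A KO than in CTCF-B KO. ADAMTS16 (-0.09 ± 0.06), TNFSF4 (-0.12 ± 0.09) and S100A2 (0.12 ± 0.10) did not pass. Mean levels in wild type and CTCF-B KO were 15.68 and 12.83 for GFAP and 12.47 and 9.40 for NPY1R. CTCF-B KO means were also below wild-type means for CADM1, CNR1, GPM6B, FADS2, SCUBE3, ANKRD1, CD24, ADAMTS16, TNFSF4 and S100A2. For IL11 the means were 9.32 and 9.77, and for RGS4 11.19 and 11.18. These means were not tested against each other here. APP was lower in CTCF-A KO than in CTCF-B KO, where it was at 16.54, 16.49, 16.55 and 16.56 (difference -0.74 ± 0.04).

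By list, 15 of 19 antigen presentation genes and 31 of 41 lysosomal hydrolases were higher in CTCF-A KO than in CTCF-B KO, against 31% of all genes. Of the interferon list 18 of 43 were higher and 3 lower. Cholesterol genes were higher than in CTCF-B KO in 17 of 27 cases and lower in 2, although 18 of them had fallen against wild type. Of the ATF4 and amino acid list 29 of 38 genes were lower in CTCF-A KO than in CTCF-B KO, against 29.5% of all genes, and 2 were higher. Between 110 and 140 Mb of chromosome 10, 63 of 69 genes were lower than in CTCF-B KO, between 70 and 90 Mb of chromosome 16, 77 of 96 were lower, and between 0 and 10 Mb of chromosome 16, 109 of 133 were higher.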

How the data were processed

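Total RNA was sequenced from 12 libraries, 4 in each of 3 groups, as paired reads of 150 bases, per the labels' protocols. The authors deposited 1 table of log2 values per gene, from 1.34 to 17.97. The submitters' processing notes name Trimmomatic 0.33, featureCounts, DESeq2 and the builds GRCh38.p7 and hg38, without saying which step each served. The transformation behind the deposited log2 values is not given in the sources used here, and no counts were used, so depth is unknown and no interval for counting error is given.

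Values were used as deposited. The filter kept the 11128 genes that reached a linear value of 10 in 4 or more libraries. CTCF-A KO and wild type were compared in limma (version 3.58.1, under R 4.3.3), letting the variance follow the mean and using Benjamini-Hochberg adjustment over all genes. Gene positions, GC content and length came from GENCODE release 29 for 11151 of 11178 identifiers. The trend was removed per library by splines in GC content (5 degrees of freedom) and log length (4), over the 11096 genes with both. The comparison was also run on simulated data with independent normal noise in each gene, with the outcome not reported here. Those data held no GC or length trend, no outlying library and no correlation between genes. They therefore cannot show how such features affect the calls. The members and gene lists were chosen with earlier results of these data known. The 14 rises and 14 falls named first are called genes with a linear mean of at least 50 in either group and no overlap between the groups. They are also called with the trend removed, and were ranked by their smallest difference in any CTCF-A KO library. From each list and chromosome stretch up to 4 genes were taken by the same ranking, and others were named by their role. The genes in which replicate 4 differed were ranked by its distance from the nearest other CTCF-A KO library. Promoters were found in the RefSeq table (GRCh38.p14) for 8741 genes (78.5%). TGACNNNGC (N any base) was also searched, and was in 15.32% of promoters of genes tested and 1 of 4 aldo-keto reductase promoters. TCACNCCAC was in 1.06% of promoters of genes tested and 0 of 22 fatty acid promoters. With promoters for only 78.5% of the genes tested, the list shares cannot be compared with those of the genes tested. Promoters were found for 25 of 33 NRF2 genes and 21 of 27 cholesterol genes, which makes the shares in those lists void. Some members of the lists are counted but not reported by name here.

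Alternatives were all 12 libraries in one model, no filter or a stricter one at 50, an added pseudocount of 8, quantile normalization, centring on the median, the trend removed, library weights, a replicate block, each library left out, and CTCF-A KO represented by replicate 4 alone.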

Additional observations from a re-analysis of the deposited data

Results flagged for a closer look

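In 62 groups of 4 libraries, those of the 28 genes named first and of APP, CTCF and MTCH2 in both groups, 2 held a library whose gap to its nearest neighbour, as a share of the group's range, was above Dixon's limit. Both were in CTCF-A KO. OAS1 was 10.37 in replicate 1 and 9.56 to 9.67 in the other 3, and TAP1 was 11.54 in replicate 1 and 11.09 to 11.17 in the other 3. In both genes the other 3 libraries were also above all wild-type libraries. Chance flags about 1 in 20 groups.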

How the results depend on the processing

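The number of genes called between CTCF-A KO and wild type was 6144 and rose to 8970 with library weights, whose estimation stopped before convergence. The weights were 7.6 for CTCF-A KO replicate 3 and 0.0975 for replicate 4, so that setting made little use of replicate 4. Leaving out 1 library gave 4788 to 7885. The 105 genes 2-fold higher became 92 to 120 when a library was left out, and the 61 that were so in every CTCF-A KO library became 60 to 84. The 143 genes 2-fold lower became 227 with library weights and 110 to 276 when a library was left out, the highest without CTCF-A KO replicate 4. The 62 genes 2-fold lower in every CTCF-A KO library became 61 to 112 when a library was left out, the highest again without replicate 4, and 101 with replicate 4 alone, where a single library has to pass. The comparison with CTCF-B KO gave 6740 calls, or 5757 to 8172 when a library was left out and 9247 with library weights.

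Replicate numbers are shared between the groups, but same-numbered libraries did not deviate together, with correlations of 0.377, -0.131, -0.319 and 0.005 across genes. With the replicate block 5832 genes were called, and 6152 with the block and the GC and length trend removed. Against CTCF-B KO the block gave 6887.

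For 246 genes the difference was recomputed under 19 settings, 4674 values in all, of which 4538 had the direction and call reported, 63 lost the call (23 genes), 71 gained one and 2 reversed. With CTCF-A KO represented by replicate 4 alone, IFNAR1 stood at 0.023 and USP24 at 0.008, and the cause was not tested. Without the genes of the 6 windows on chromosomes 10 and 16, a choice made after seeing the data, 5878 genes were called, 101 of them 2-fold higher and 107 2-fold lower.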
